A study of Mus musculus with 8 samples.

Results

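The 10 genes described here encode receptors of the TNF receptor superfamily that Treg carry or that costimulate T cells: Tnfrsf1a, Tnfrsf1b, Tnfrsf4, Tnfrsf8, Tnfrsf9, Tnfrsf18, Tnfrsf25, Tnfrsf14, Cd27 and Fas. They were chosen by gene symbol as receptors of this family known in Treg, and are 10 of the 38215 genes in the tables. All 10 passed the expression filter, which left 13397 genes to be tested. The RNAseq libraries were made from sorted FoxP3+ cells, 4 of them from bone marrow (BM-Treg) and 4 from spleen (SP-Treg). The question was how the transcriptome of Treg in the bone marrow differs from that in the spleen.

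The animals were B6.FoxP3-GFP mice aged 12 weeks, given as genotype C57Bl/6 in the labels, in which a green fluorescent protein marks the cells that express FoxP3. BM-Treg replicates 1 to 3 were female and belonged to batch 1, while batch 3 comprised BM-Treg replicate 4 and all SP-Treg samples, which were male, so that tissue, sex and batch cannot be told apart in 3 of the 4 BM-Treg libraries. Batch 3 held 1 BM-Treg library, and fold changes within it carry no test. The titles of the spleen libraries carry numbers joined by a hyphen. The labels do not say what these numbers mean, or whether the libraries are pools of animals or share animals. P-values therefore measure the spread between these libraries.

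Receptors of this family are single-pass membrane proteins that are clustered by trimeric ligands of the TNF family. Members with a death domain in the cytoplasmic tail bind adaptors such as TRADD or FADD, and the others bind TRAF proteins directly and lead to NF-kappaB activation. In Treg, OX40, GITR, 4-1BB, TNFR2, CD30 and DR3 are known as costimulators of proliferation and survival, and several of these genes rise after T cell receptor stimulation.

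Expected counts per library summed to between 12427136 and 21921252, with the 3 deepest libraries all BM-Treg of batch 1. Foxp3 was read at 1497 to 2081 CPM in BM-Treg, where CPM are counts scaled by TMM library size, and at 1272 to 1721 CPM in SP-Treg, with a log2 fold change of 0.26 (edgeR's quasi-likelihood test, adjusted p = 0.241). Transcripts of other cells were low and differed between the libraries. The summed CPM of 6 NK cell markers lay between 0.418 and 2.13 in BM-Treg and between 2.59 and 11.2 in SP-Treg, and the defining markers Ncr1 and Klrb1c were at 0 in every BM-Treg library. The 2 CD8 T cell markers summed to 10.9 to 12.6 CPM in BM-Treg and to 13.2 to 41.0 CPM in SP-Treg, highest in SP-Treg replicate 2. The B cell, erythroid, plasma cell, neutrophil, pDC and monocyte and macrophage sums overlapped between the tissues, although erythroid transcripts reached 154 CPM in SP-Treg and no more than 10.8 CPM in BM-Treg. The B cell sum was 98.2 CPM in SP-Treg replicate 2, against 6.90 to 21.1 CPM in the other SP-Treg libraries and 11.1 to 14.7 CPM in BM-Treg. The part of these cells in the results was not tested. In bulk RNA, fewer cells that express a gene and less RNA per cell cannot be told apart.

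In both tissues 5 of the receptors made up nearly all of the message of the group. Cd27, Tnfrsf18, Tnfrsf4, Tnfrsf9 and Tnfrsf1b together held between 96.1% and 98.0% of the summed FPKM (counts scaled by transcript length and depth) of the 10 genes in each library. Cd27, the receptor for CD70, had the highest FPKM, with 597 ± 35.9 in BM-Treg and 599 ± 39.3 in SP-Treg (mean ± SD, n = 4), and ranked 76 and 70 among the 13397 genes tested. Tnfrsf18, which encodes GITR, came next with 446 ± 108 FPKM in BM-Treg and 348 ± 66.9 FPKM in SP-Treg. The libraries of Cd27 and Tnfrsf18 overlapped in BM-Treg and did not overlap in SP-Treg.

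Below Tnfrsf18 in BM-Treg, Tnfrsf4 at 179 ± 38.5 FPKM, Tnfrsf9 at 157 ± 60.5 FPKM and Tnfrsf1b at 150 ± 27.9 FPKM overlapped one another, all below Tnfrsf18. In SP-Treg the order was Tnfrsf9 at 238 ± 42.1 FPKM, Tnfrsf1b at 210 ± 83.5 FPKM and Tnfrsf4 at 207 ± 43.5 FPKM, with overlap from one to the next. Tnfrsf9 and Tnfrsf1b each also overlapped Tnfrsf18 in SP-Treg. The other 5 receptors lay far lower, from 17.0 ± 2.77 FPKM for Tnfrsf25 to 2.20 ± 0.645 FPKM for Tnfrsf8 in BM-Treg, and from 10.2 ± 1.70 FPKM for Fas to 4.21 ± 0.950 FPKM for Tnfrsf8 in SP-Treg. Tnfrsf25 stood above Tnfrsf1a and Fas in every BM-Treg library, while in SP-Treg Fas, Tnfrsf25, Tnfrsf14, Tnfrsf1a and Tnfrsf8 each overlapped the next in order.

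**Figure D1:**
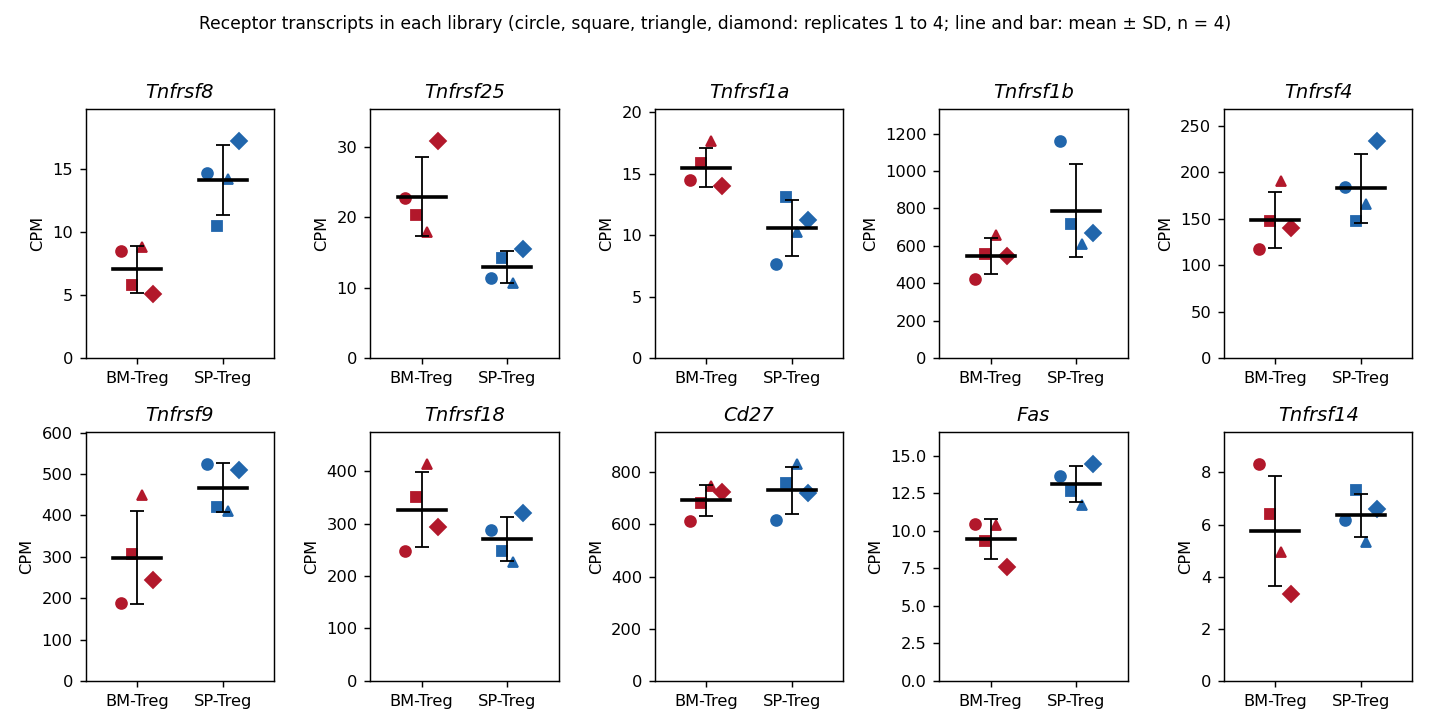
CPM of the 10 receptor genes in each library, with a vertical axis from 0 in every panel, red for BM-Treg and blue for SP-Treg. The line and bar give the mean ± SD of 4 libraries. The libraries of the tissues are separate for Tnfrsf8, Tnfrsf25, Tnfrsf1a and Fas and overlap for the other 6 genes.

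Of the 10 receptors, 1 was upregulated and 1 was downregulated in BM-Treg at an adjusted p under 0.05 (edgeR, Benjamini-Hochberg adjustment over all genes tested). Among all genes tested, 8.75% were called, 3.72% as higher and 5.02% as lower in BM-Treg. For 4 of the 10 receptors the libraries of the tissues did not overlap in CPM, as was the case for 16.2% of all genes tested. In FPKM the tissues overlapped for Tnfrsf1a and Fas. The median log2 fold change of the receptors was -0.22, with 7 lower and 3 higher in BM-Treg, beside a median of -0.01 over all genes. At an unadjusted p under 0.05 in edgeR, 6 of the 10 receptors passed, beside 23.3% of all genes. DESeq2's own test called 5 of the 10 receptors, beside 12.7% of all genes.

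**Figure D2:**
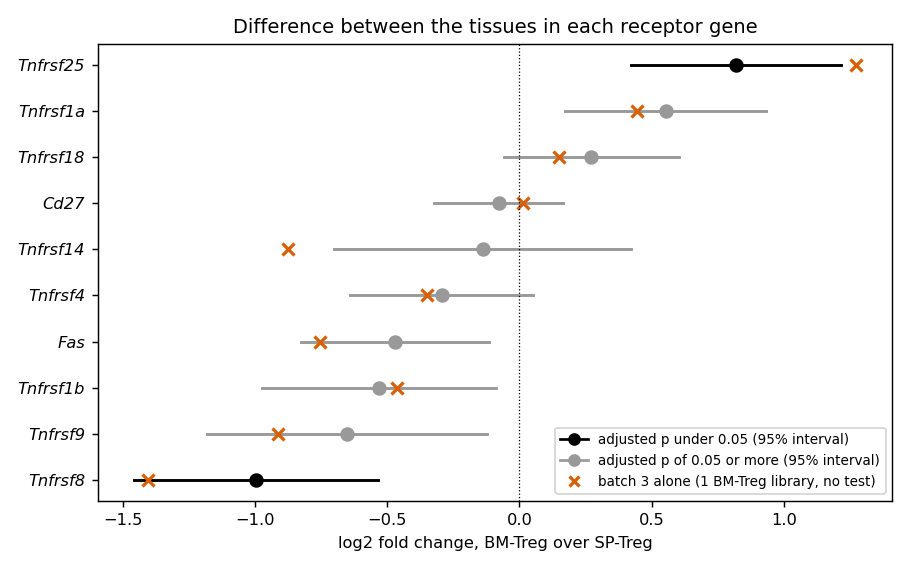
Log2 fold change of each receptor gene, BM-Treg over SP-Treg, with its 95% interval from edgeR (horizontal bars) and the value in batch 3 alone (crosses, 1 BM-Treg against 4 SP-Treg libraries, no test). Tnfrsf8 at -0.996 and Tnfrsf25 at 0.82 passed the adjusted threshold and lie further from 0 in batch 3 alone.

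Tnfrsf25 (ENSMUSG00000024793, chr4:152115934-152120119, GRCm38), which encodes DR3, the death domain receptor for TL1A, was the receptor that was upregulated in BM-Treg. Its level was 22.7, 20.3, 17.8 and 30.7 CPM in BM-Treg replicates 1 to 4 and 11.4, 14.2, 10.7 and 15.4 CPM in the SP-Treg replicates. Every BM-Treg library lay above every SP-Treg library, and the highest value belonged to BM-Treg replicate 4, the one of the same batch and sex as the SP-Treg libraries. The fold was 1.76, a log2 fold change of 0.82 ± 0.19 (SE, 95% interval 0.42 to 1.21, edgeR adjusted p = 0.0136), and the exact two-sided permutation test over the 8 libraries gave p = 0.0286, the smallest it can give with 4 against 4. Within batch 3 alone the log2 fold change was 1.27. The call held at the 0.05 threshold in all 18 alternative fits, with adjusted p up to 0.0366, and without SP-Treg replicate 2, the library with most CD8 T cell transcript, the log2 fold change was 0.86 (adjusted p = 0.0244). These values rest on 128 to 438 expected counts per library.

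The reads of Tnfrsf25 were split between transcripts that begin at separate starts, which is why the sequence before the start of the main one is shown. Tnfrsf25-202, which begins at 152116343 on the plus strand and has an open reading frame of 387 codons, held 69.7, 75.7, 77.3 and 80.0% of the expected counts of the gene in BM-Treg and 76.9, 77.3, 52.1 and 51.5% in SP-Treg. Tnfrsf25-201, with 411 codons, held 13.8 to 18.1% in BM-Treg and 17.3, 15.8, 31.2 and 35.7% in SP-Treg. SP-Treg replicates 3 and 4 stood apart from replicates 1 and 2, which lay within the BM-Treg range, so that the tissues overlapped (exact permutation p = 0.286 for Tnfrsf25-202 and 0.171 for Tnfrsf25-201, both with an adjusted p of 0.511 over 13 transcripts). The 250 bases before the start of Tnfrsf25-202 (RefSeq, GRCm38.p6, plus strand, chr4:152116093-152116342) hold no match in capitals:
Tnfrsf25-202 upstream: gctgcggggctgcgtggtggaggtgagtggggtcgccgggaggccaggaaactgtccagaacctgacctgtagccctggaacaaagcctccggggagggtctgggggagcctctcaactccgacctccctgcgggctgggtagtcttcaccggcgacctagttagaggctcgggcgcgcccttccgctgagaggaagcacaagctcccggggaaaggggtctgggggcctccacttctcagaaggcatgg

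Tnfrsf1a (ENSMUSG00000030341, chr6:125349362-125362484) encodes TNFR1, the death domain receptor for TNF and lymphotoxin. It was read at 14.5, 15.8, 17.6 and 14.0 CPM in BM-Treg and at 7.69, 13.1, 10.3 and 11.2 CPM in SP-Treg. All BM-Treg libraries lay above all SP-Treg libraries, with 14.0 against 13.1 CPM at the nearest point. In FPKM the tissues overlapped, with 7.37 in BM-Treg replicate 4 and 8.52 in SP-Treg replicate 2. The log2 fold change of 0.55 ± 0.18 (SE, 95% interval 0.17 to 0.93) did not pass in edgeR (adjusted p = 0.0686), the exact permutation test gave p = 0.0286, and batch 3 alone gave 0.44. It passed in 3 of 18 alternative fits, namely DESeq2's own test (adjusted p = 0.0328), a filter of at least 10 counts in every library (edgeR adjusted p = 0.0495) and the fit without SP-Treg replicate 2 (edgeR adjusted p = 0.0484).

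Fas (ENSMUSG00000024778, chr19:34290659-34327770), the death receptor for Fas ligand, had a fold change of the opposite sign. Its values were 10.5, 9.31, 10.4 and 7.60 CPM in BM-Treg and 13.7, 12.7, 11.7 and 14.5 CPM in SP-Treg, with no overlap. Its log2 fold change was -0.47 ± 0.17 (SE, 95% interval -0.82 to -0.11, edgeR adjusted p = 0.0959, exact permutation p = 0.0286), and -0.75 in batch 3 alone. In FPKM the tissues overlapped, with 10.47 in BM-Treg replicate 1 and 8.12 in SP-Treg replicate 3. No alternative fit called Fas, the smallest adjusted p being 0.0672 in DESeq2's own test. With limma-trend on log2(FPKM + 1) its log2 fold change was -0.22 (adjusted p = 0.545). A short transcript, Fas-202 with 63 codons, held 6.87 to 18.5% of the counts of Fas in BM-Treg and 2.89 to 10.9% in SP-Treg, and was not tested since its mean share was under 10%.

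The 3 receptors with a death domain did not share a sign, with Tnfrsf25 called as higher and Tnfrsf1a and Fas not called.

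Tnfrsf8 (ENSMUSG00000028602, chr4:145267137-145315164, minus strand), which encodes CD30, a receptor of activated lymphocytes, was the receptor that was downregulated in BM-Treg. It lies 20.3 kb from Tnfrsf1b on chromosome 4, which carries 7 of the 10 genes. It was read at 8.48, 5.79, 8.80 and 5.10 CPM in BM-Treg and at 14.7, 10.4, 14.2 and 17.2 CPM in SP-Treg. No BM-Treg library reached the lowest SP-Treg library, and the lowest level of all was in BM-Treg replicate 4 of batch 3. SP-Treg was 1.99-fold higher, a log2 fold change of -0.996 ± 0.22 (SE, 95% interval -1.46 to -0.53, edgeR adjusted p = 0.0107, exact permutation p = 0.0286). Within batch 3 alone the log2 fold change was -1.40. It was called in 15 of 18 alternative fits, and lost the call with a batch term (-1.47, edgeR adjusted p = 0.0547) and with limma-trend on log2(FPKM + 1) (-0.71, adjusted p = 0.0619) and on log2(FPKM + 0.1) (-0.92, adjusted p = 0.0658). Each fit with 1 library left out kept it, with adjusted p from 0.00919 without SP-Treg replicate 2 to 0.0433 without BM-Treg replicate 2. Its depth was 61 to 234 expected counts per library.

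The estimated split of Tnfrsf8 counts between its transcripts varied widely among libraries. Tnfrsf8-201, with 498 codons, held 41.9 to 100% in BM-Treg and 56.5 to 100% in SP-Treg, and the rest went to Tnfrsf8-202, a transcript annotated for nonsense-mediated decay. The mean share of Tnfrsf8-201 was 75.1 ± 27.8% in BM-Treg and 74.0 ± 18.4% in SP-Treg (exact permutation p = 0.971, adjusted p = 0.971). The 5 genes most like Tnfrsf8 in log2 CPM over the 8 libraries, out of 13396 others, were Rab3ip, Adam19, Rfc1, Prpf6 and Gm11730, with Pearson r between 0.971 and 0.979. As the libraries of each tissue share their tissue, these r values contain the difference between the tissues and are given as a description.

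The sequences before the starts of Tnfrsf8 and Tnfrsf9 are shown because they alone among the receptors held a match to the kappaB consensus, the binding motif of NF-kappaB. Both strands were searched, in windows of 300 bases from 250 before to 50 after each RefSeq start (GRCm38.p6), for that consensus, for the AP-1 motif TGANTCA and for the TATA box TATAAA. All 10 receptors had a window, and 12 windows were searched since Tnfrsf9 and Tnfrsf25 have 2 starts each. Of all 32851 windows, 4.51% held the kappaB consensus, 7.81% the AP-1 motif and 13.6% the TATA box. Among those of the receptors, 2 held kappaB, 3 held AP-1 (Tnfrsf8, the downstream start of Tnfrsf9, and Fas) and 0 held the TATA box. The kappaB and AP-1 matches stand in capitals. Positions count back from the start, with -1 as the base just before it.
Tnfrsf8 upstream (chr4:145315165-145315414, minus strand; kappaB at -168, AP-1 at -132): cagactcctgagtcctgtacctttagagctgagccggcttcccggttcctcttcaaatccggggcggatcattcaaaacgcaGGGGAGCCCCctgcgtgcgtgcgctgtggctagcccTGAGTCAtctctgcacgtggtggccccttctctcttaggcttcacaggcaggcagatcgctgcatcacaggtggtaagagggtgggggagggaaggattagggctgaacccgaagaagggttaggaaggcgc
Tnfrsf9 upstream of the downstream start (chr4:150927749-150927998, plus strand; overlapping kappaB at -43 and -42, AP-1 at -15): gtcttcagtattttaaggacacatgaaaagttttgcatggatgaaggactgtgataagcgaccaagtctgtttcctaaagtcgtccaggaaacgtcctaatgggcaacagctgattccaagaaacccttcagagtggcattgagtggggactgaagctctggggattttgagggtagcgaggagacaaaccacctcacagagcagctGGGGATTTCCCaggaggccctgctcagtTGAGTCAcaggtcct
Tnfrsf9 upstream of the distal start (chr4:150919905-150920154, plus strand; no match): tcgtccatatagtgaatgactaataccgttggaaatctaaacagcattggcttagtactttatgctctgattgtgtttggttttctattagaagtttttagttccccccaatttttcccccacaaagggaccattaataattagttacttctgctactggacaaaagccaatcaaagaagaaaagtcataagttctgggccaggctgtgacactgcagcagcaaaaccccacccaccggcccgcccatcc
A match describes letters only, and no binding was measured here.

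Tnfrsf9 (ENSMUSG00000028965, chr4:150914562-150946102) encodes 4-1BB, a costimulator induced by T cell receptor signals. It varied more between BM-Treg libraries than any other abundant receptor, at 189, 307, 450 and 244 CPM, against 524, 421, 412 and 511 CPM in SP-Treg. BM-Treg replicate 3 lay within the SP-Treg range and the other 3 BM-Treg libraries lay below it. A log2 fold change of -0.65 ± 0.24 (SE, 95% interval -1.18 to -0.12) did not pass in edgeR (adjusted p = 0.130, exact permutation p = 0.0857), and batch 3 alone gave -0.91. Without BM-Treg replicate 3 it was -0.92 (edgeR adjusted p = 0.00569), and DESeq2's own test (adjusted p = 0.0214) and limma-voom (adjusted p = 0.0469) also called it.

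The 2 starts of Tnfrsf9 whose sequences are given above correspond to its 2 main transcripts. Tnfrsf9-205, which begins at the downstream start and has 256 codons, held 65.7, 61.3, 67.6 and 56.5% of the counts in BM-Treg and 45.0, 56.5, 65.7 and 55.6% in SP-Treg. Tnfrsf9-204, from the distal start and with 211 codons, held most of the rest, 36.7 ± 4.91% in BM-Treg and 43.8 ± 8.78% in SP-Treg. SP-Treg replicate 3 lay among the BM-Treg libraries and SP-Treg replicate 1 furthest from them, and the tissues overlapped (exact permutation p = 0.143 for Tnfrsf9-205 and 0.200 for Tnfrsf9-204, adjusted p = 0.511). Without SP-Treg replicate 3, the library that lay among those of BM-Treg, the shares of both transcripts no longer overlapped, by a very small gap. The nearest shares were then 42.85% in BM-Treg and 42.95% in SP-Treg for Tnfrsf9-204. For Tnfrsf9-205 they were 56.52% in BM-Treg and 56.49% in SP-Treg. As each transcript held most of what the other did not, these are not separate results.

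**Figure D3:**
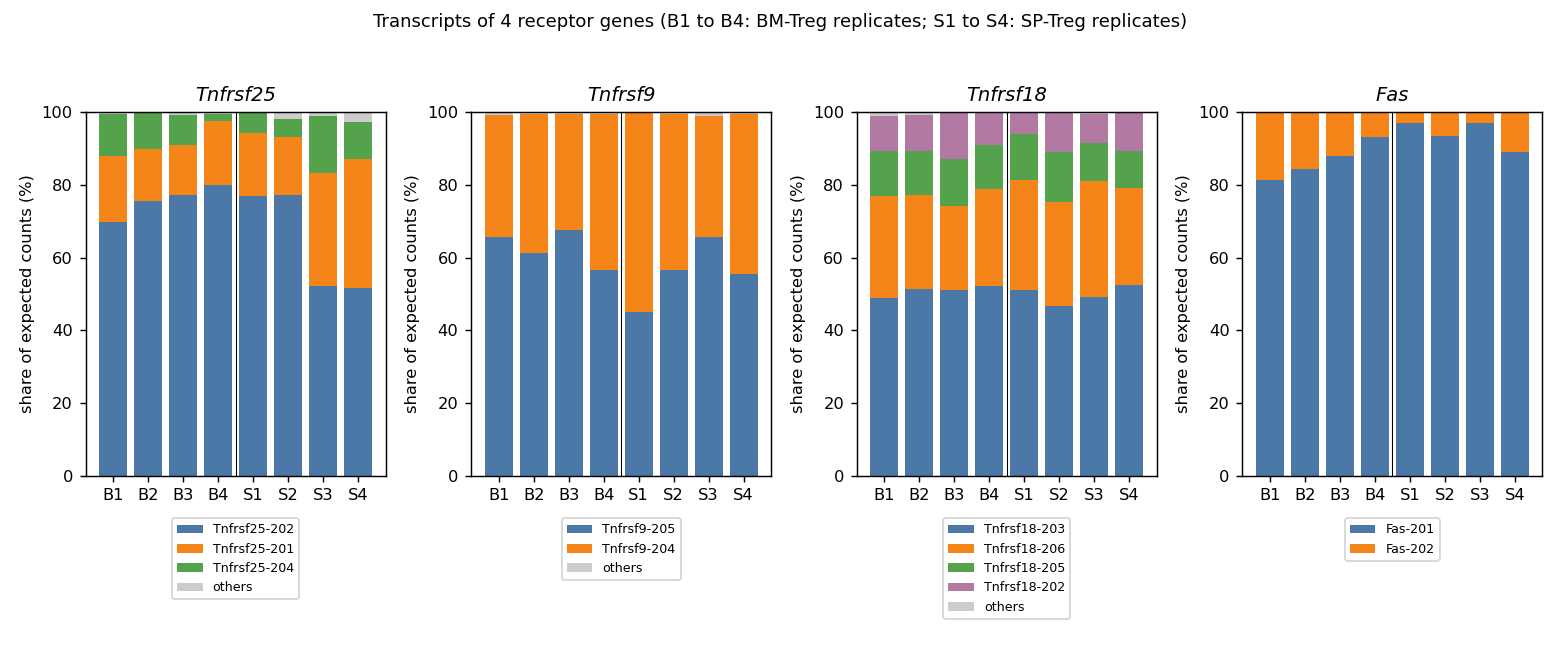
Share of the expected counts of Tnfrsf25, Tnfrsf9, Tnfrsf18 and Fas given to each transcript, in percent, as stacked bars for each library. SP-Treg replicates 3 and 4 give 31.2 and 35.7% of Tnfrsf25 to Tnfrsf25-201, and Tnfrsf18-206 holds between 23.1 and 31.7% of Tnfrsf18.

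Tnfrsf1b (ENSMUSG00000028599, chr4:145213463-145246870), which encodes TNFR2, the TNF receptor known to expand Treg, was read at 423, 555, 660 and 547 CPM in BM-Treg and at 1159, 716, 613 and 669 CPM in SP-Treg. SP-Treg replicate 1 was the highest of all libraries, while BM-Treg replicate 3 overlapped the SP-Treg range. Mitochondrial genes held 19.2% of the expected counts in SP-Treg replicate 1, against 29.6 to 32.9% in the other SP-Treg libraries and 24.5 to 28.7% in BM-Treg. Whether this bears on the level of Tnfrsf1b was not tested. The log2 fold change of -0.53 ± 0.20 (SE, 95% interval -0.97 to -0.09, edgeR adjusted p = 0.135, exact permutation p = 0.0571) shrank to -0.27 without SP-Treg replicate 1 (adjusted p = 0.310), and was -0.46 in batch 3 alone. DESeq2's own test called it (adjusted p = 0.0481), and no other alternative fit did.

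Since TNFR1 and TNFR2 share TNF as a ligand, the FPKM of Tnfrsf1b was also set against that of Tnfrsf1a within each library, a ratio chosen after the values had been seen and given with no test. It was 13.3, 14.7, 17.0 and 19.2 in BM-Treg and 65.7, 21.2, 26.5 and 31.5 in SP-Treg. Tnfrsf1b was the more abundant in every library, and by more in each SP-Treg library than in any BM-Treg library. The nearest values both belonged to batch 3, with 19.2 in BM-Treg replicate 4 and 21.2 in SP-Treg replicate 2.

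Tnfrsf4 and Tnfrsf18, which encode the costimulators OX40 and GITR, are neighbours separated by 9.55 kb on chromosome 4, and had log2 fold changes of opposite sign that did not pass. Tnfrsf4 (ENSMUSG00000029075, chr4:156013843-156016612) was read at 118, 148, 190 and 139 CPM in BM-Treg and at 184, 148, 165 and 233 CPM in SP-Treg. Tnfrsf18 (ENSMUSG00000041954, chr4:156026164-156028895) was read at 248, 350, 413 and 293 CPM in BM-Treg and at 288, 247, 226 and 320 CPM in SP-Treg. The tissues overlapped in both genes. In Tnfrsf4 the log2 fold change was -0.29 ± 0.16 (SE, 95% interval -0.64 to 0.05, edgeR adjusted p = 0.295, exact permutation p = 0.229). It was 0.27 ± 0.15 for Tnfrsf18 (SE, 95% interval -0.06 to 0.60, edgeR adjusted p = 0.315, exact permutation p = 0.200). Batch 3 alone gave -0.35 for Tnfrsf4 and 0.15 for Tnfrsf18. Neither passed in any alternative fit.

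The ratio of the FPKM of Tnfrsf18 to that of Tnfrsf4, again chosen after the values had been seen and not tested, was 2.36, 2.64, 2.497 and 2.39 in BM-Treg and 1.86, 1.99, 1.46 and 1.50 in SP-Treg. The libraries of the tissues did not overlap in this ratio, although they overlapped in the level of each gene. As a ratio within a library it does not depend on the scaling between libraries, and it does not tell which of the genes differed.

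Tnfrsf4, Tnfrsf9 and Tnfrsf18 departed from their tissue means in the same libraries. All 3 were highest in BM-Treg replicate 3 and lowest in BM-Treg replicate 1, with departures in log2 CPM of 0.38, 0.67 and 0.37 in replicate 3 and of -0.31, -0.58 and -0.37 in replicate 1. In SP-Treg all 3 were above their mean in replicates 1 and 4 and below it in replicates 2 and 3. Tnfrsf1b (-0.35 and 0.29) and Cd27 (-0.17 and 0.12) were likewise lowest in BM-Treg replicate 1 and highest in replicate 3, so that the marrow order was not particular to the 3 genes. In the spleen Cd27 was above its mean in replicates 2 and 3, and Tnfrsf1b in replicate 1 alone. Fas had the same signs in the spleen as the 3 genes, with 0.06, -0.05, -0.16 and 0.14 in SP-Treg replicates 1 to 4. The spleen signs were therefore not particular to the 3 genes either. BM-Treg replicates 1 and 3 shared batch, sex and tissue, so that this spread lies within a group.

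**Figure D4:**
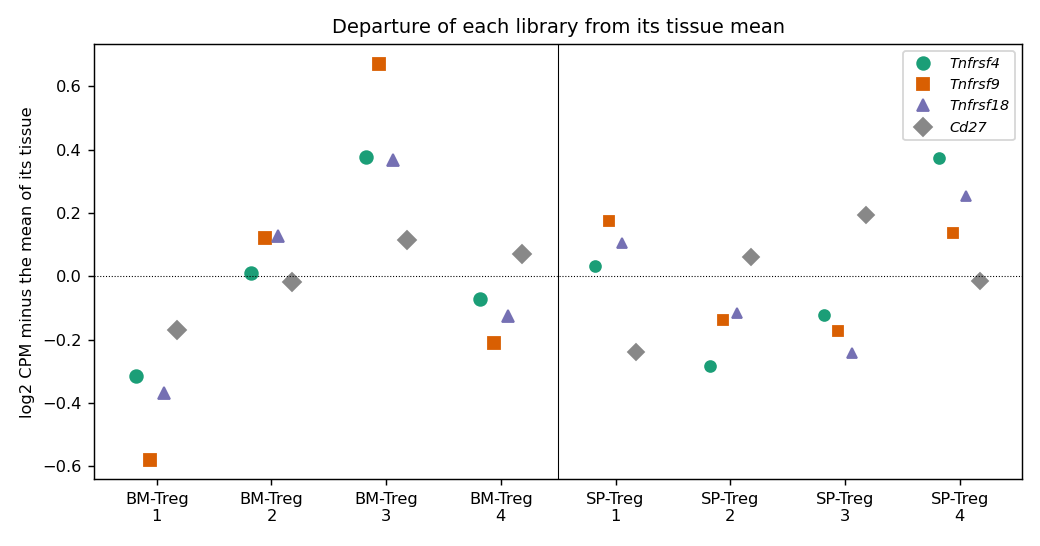
Departure of Tnfrsf4, Tnfrsf9, Tnfrsf18 and Cd27 from the mean log2 CPM of their tissue, in each library. Among the BM-Treg libraries, Tnfrsf4, Tnfrsf9 and Tnfrsf18 lie furthest above 0 in BM-Treg replicate 3 and furthest below it in BM-Treg replicate 1, with Tnfrsf9 at 0.67 and -0.58, and Cd27 has the same extremes in BM-Treg at 0.12 and -0.17.

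Among the transcripts of Tnfrsf18, Tnfrsf18-203 held 50.9 ± 1.40% in BM-Treg and 49.8 ± 2.52% in SP-Treg. Tnfrsf18-206, annotated as a retained intron, held 25.9 ± 2.09% in BM-Treg and 29.4 ± 2.12% in SP-Treg (exact permutation p = 0.0857, adjusted p = 0.511), the smallest p among the 13 transcripts tested. Its shares did not overlap between the tissues without SP-Treg replicate 4, or as shares of the summed FPKM. By exact permutation tests 0 of these 13 transcripts passed, also unadjusted, and 0 had shares that did not overlap between the tissues. The smallest p this test can give is 0.0286, so that no transcript on its own could pass after adjustment over 13. The adjusted values therefore cannot show that shares were equal. These shares are estimates for transcripts that share most of their exons. An antisense gene, Gm16008, overlaps Tnfrsf18, with a mean of 3.42 CPM in the marrow and 3.24 CPM in the spleen, and whether the counting used strand was not stated in the sources used here.

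Cd27 (ENSMUSG00000030336, chr6:125232622-125237010) was read at 614, 682, 748 and 725 CPM in BM-Treg and at 616, 758, 831 and 719 CPM in SP-Treg. The tissues overlapped over most of their range. The log2 fold change of -0.08 ± 0.11 (SE, edgeR adjusted p = 0.731, exact permutation p = 0.486) had the narrowest interval of the 10 receptors, from -0.32 to 0.17, and was 0.01 in batch 3 alone. The gene overlaps Vamp1 on the other strand, with a mean of 83.7 CPM in the marrow and 52.8 CPM in the spleen. If strand was not used, reads within the stretch shared by both genes may not have been told apart.

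Tnfrsf14 (ENSMUSG00000042333, chr4:154922210-154928563), which encodes HVEM, the receptor for LIGHT and BTLA, had the widest interval. It was read at 8.32, 6.39, 4.95 and 3.34 CPM in BM-Treg and at 6.18, 7.33, 5.35 and 6.60 CPM in SP-Treg, on 40 to 152 expected counts. The log2 fold change was -0.14 ± 0.26 (SE, 95% interval -0.70 to 0.42, edgeR adjusted p = 0.798, exact permutation p = 0.571). BM-Treg replicates 1 and 4 were the highest and the lowest of all 8 libraries, and without replicate 4 the value was 0.04 (adjusted p = 0.949). In batch 3 alone, where replicate 4 is the only BM-Treg library, it was -0.87, and with a batch term -0.93 (edgeR adjusted p = 0.226).

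The wider family and its pathway were read from lists of genes, counted as the receptors were. Among all genes tested, 3.72% were called as higher and 5.02% as lower in BM-Treg, and no test was run over a list. Of 18 other receptors of the family 8 were tested, with 1 called as higher in BM-Treg, Tnfrsf12a, which encodes the TWEAK receptor (log2 fold change 1.15 ± 0.32, edgeR adjusted p = 0.0359), and a median of 0.02. Of 18 ligands of the TNF family 10 were tested, with 4 downregulated in BM-Treg and a median of -0.28. Of 14 receptor adaptors 2 were downregulated, Cflar, which encodes the caspase-8 inhibitor FLIP (-0.56 ± 0.12, adjusted p = 0.0104), and Tank (-0.35 ± 0.10, adjusted p = 0.0395), with a median of -0.12. Of 14 genes of the NF-kappaB pathway 2 were downregulated, the subunit genes Rel (-0.78 ± 0.11, adjusted p = 0.000909) and Nfkb1 (-0.33 ± 0.10, adjusted p = 0.0454), with a median of 0.10. By sign 8 of the 14 were higher and 6 lower in BM-Treg. The largest change was an increase that did not pass, in Tnfaip3 (1.24 ± 0.35, adjusted p = 0.0745), whose libraries did not overlap between the tissues.

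**Figure D5:**
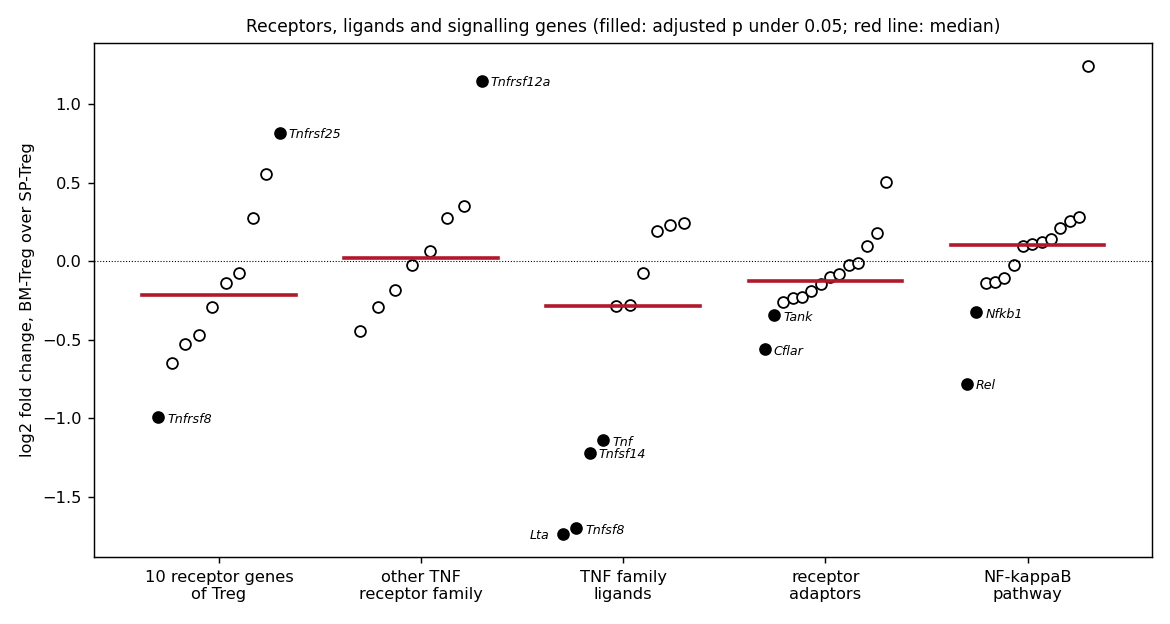
Log2 fold change, BM-Treg over SP-Treg, of each tested gene in the 10 receptors and in the lists of other family receptors, ligands, adaptors and NF-kappaB pathway genes. Filled points passed an adjusted p under 0.05 and the red lines are the medians, which lie between -0.28 for ligands and 0.10 for the NF-kappaB pathway.

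Several receptors could be set beside the ligand they bind. Tnfsf8, which encodes the ligand of CD30, was read at 9.20, 4.31, 6.78 and 3.93 CPM in BM-Treg and at 17.2, 21.3, 16.6 and 24.2 CPM in SP-Treg, with no overlap (log2 fold change -1.70 ± 0.25, edgeR adjusted p = 0.00134). The transcripts of Tnfrsf8 and Tnfsf8 were thus both downregulated in BM-Treg, with Tnfrsf8 called in 15 of 18 alternative fits. Protein was not measured in these libraries. Tnf was downregulated (-1.14 ± 0.17, adjusted p = 0.00108), as was Lta, which encodes lymphotoxin alpha (-1.74 ± 0.30, adjusted p = 0.00343). Of their receptors, Tnfrsf1a had a log2 fold change of 0.55 and Tnfrsf1b one of -0.53, and neither passed. Tnfsf14, which encodes the HVEM ligand LIGHT, was downregulated on 16 to 72 counts per library (-1.22 ± 0.36, adjusted p = 0.0492).

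The ligands of the remaining receptors were low. Tnfsf9, the 4-1BB ligand, lay at 2.505 CPM in SP-Treg on average (log2 fold change -0.28, edgeR adjusted p = 0.640), and Fasl had a log2 fold change of -0.28 (adjusted p = 0.735). Tnfsf18, the ligand of GITR, had 0 counts in every library, which allows up to 0.131 to 0.251 CPM by a floor of 3 counts in each. Cd70, the ligand of CD27, had 1 count in BM-Treg replicate 1 and 0 elsewhere. Tnfsf4, the OX40 ligand, had at most 8 counts and Tnfsf15, the ligand of DR3, at most 18 counts in a library, and neither passed the filter. On these few counts Tnfsf15 lay at 0 to 0.350 CPM in BM-Treg and at 0.418 to 1.43 CPM in SP-Treg. The tissues did not overlap (exact permutation p = 0.0286), and edgeR did not test the gene. The floors of 3 counts cover counting error only.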

How the data were processed

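RNA of FACS-sorted FoxP3+ cells was amplified (NuGEN SPIA) and read as single-end 80 nt sequences. As deposited, the files of the authors hold expected counts per gene and transcript, which are estimated read numbers without normalization between libraries, and FPKM values, in which counts are divided by transcript length and depth. The submitters' processing notes name cutadapt 1.9, STAR 2.5.2a, RSEM 1.2.30 and GRCm38. The annotation and the use of strand are not given in the sources used here.

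Expected counts were rounded, filtered with edgeR's filterByExpr (13397 of 38215 genes kept), scaled by TMM and fitted with the robust quasi-likelihood model of edgeR, with Benjamini-Hochberg adjustment over all genes and a threshold of 0.05. The study's methods name no test for RNAseq. Log2 CPM used a prior count of 2. Single values were compared by the exact two-sided permutation test (70 splits). Transcript shares were tested at a mean share of at least 10%. Motifs were searched in RefSeq promoters (GRCm38.p6). Depth was 12427136 to 21921252 expected counts per library. No libraries were duplicates (chi-square per degree of freedom 14.6 to 88.5). The tools were DESeq2 1.42.0, limma 3.58.1 and edgeR 4.0.16 in R 4.3.3, and the edgeR steps were tested on simulated data.

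The receptors, lists and tests were chosen with earlier results of these data known. Named were the 10 receptors, up to 6 called genes of each list, the ligands of the receptors and the 5 genes most like the receptor with the smallest adjusted p. Tnfaip3 was named after the data had been seen. Alternatives were limma-voom, DESeq2 size factors, the Wald test of DESeq2, log2 FPKM with pseudocounts of 1 and 0.1 in limma-trend, other filters, a batch term, batch 3 alone, a replicate block, each library left out, a threshold of 0.01 and, added after the data had been seen, no mitochondrial genes and Lars2. Of the marker genes listed, Hbb-bs, Hbb-bt, Jchain, Mzb1 and Adgre1 matched no symbol in the tables.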

Additional observations from a re-analysis of the deposited data

How the results depend on the processing

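Of the fold changes of the 10 receptors, 173 of 190 values under alternatives kept their direction and side of the threshold or, with no test, moved by less than 1 SD. The reversals were of values near 0: Tnfrsf14 ran from -0.34 without BM-Treg replicate 1 to 0.038 without BM-Treg replicate 4, with -0.93 under a batch term and -0.87 in batch 3 alone, and Cd27 from -0.13 without SP-Treg replicate 1 to 0.0022 without BM-Treg replicate 1, with 0.014 in batch 3 alone. The number of receptors called was 5 with DESeq2's own test and 1 with limma-trend on log2(FPKM + 1), on log2(FPKM + 0.1) and with a batch term, against 2 as reported, and 2 to 3 when each library was left out. At an adjusted p under 0.01 edgeR called 0 of the 10 receptors (6 at an unadjusted p under 0.05), DESeq2's own test 2 and limma-voom 0. Over all genes the 1172 calls became 765 and 728 on the FPKM scales, 258 with a batch term and 427 at a threshold of 0.01, and lay between 690 (without BM-Treg replicate 2) and 1048 when each library was left out. The share of calls that were higher in BM-Treg was 42.6% as reported, 63.0% and 62.4% on the FPKM scales, and the median of all genes moved by less than 0.1 under every alternative. With the replicate number as a replicate block, 948 genes and 2 receptors were called. No receptor changed its call. Replicates 1 to 3 were female in the marrow and male in the spleen, so that these numbers do not pair animals. Deviations of same-numbered libraries had r from -0.18 to 0.06, which cannot decide whether the libraries of replicate 4 are a pair. For transcript shares, 1 transcript was separate between the tissues as a share of FPKM (Tnfrsf18-206), 0 to 3 when each library was left out (Tnfrsf9-204, Tnfrsf9-205 and Tnfrsf4-201 without SP-Treg replicate 3, Tnfrsf18-206 and 2 transcripts of Tnfrsf14 without SP-Treg replicate 4), and 0 passed in the replicate block by sign flips, whose smallest p is 0.125. The cause of these differences was not tested. A batch term rests on the 1 BM-Treg library of batch 3.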
